A study of Mus musculus with 9 samples.

Results

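The 52 genes described here encode the machinery of the cell cycle and of cell division, namely cyclins, cyclin-dependent kinases (CDKs), CDK inhibitors, the RB and E2F proteins, replication and nucleotide-synthesis enzymes, mitotic kinases and spindle checkpoint proteins. They were taken by name from a list and sorted by the phase in which they are best known to act. The rule itself uses no measured value, although the list was drawn up with earlier results of these data known. Of the 52 genes, 51 were measured, out of 18193 genes that had a probe set annotated to that gene alone. These were 17 genes of G1, 11 of S phase, 22 of the 23 listed for M phase, and Ccna1, the cyclin of germ cells. Ccnb1 was not analysed here. Testis RNA came from 5 Tmem203 null and 4 wild-type (WT) samples, all from untreated mice of the C57BL/6J strain that were 24 weeks old. In the null allele, which was made in embryonic stem cells and is carried in every cell of the animal, the first codon of Tmem203 and a stretch of its 5′ untranslated region were replaced. The selection cassette was later removed by Flpe recombinase, so that a short recombination site remains. TMEM203 is a membrane protein of the endoplasmic reticulum, and the null males are infertile.

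A dividing cell passes from G1 through S phase, where the DNA is copied, to G2 and M phase, where the chromosomes are separated. D-type cyclins with CDK4 or CDK6, then E-type cyclins with CDK2, phosphorylate RB and its relatives and so release E2F factors, which turn on the genes of DNA replication. Inhibitors such as p21, p27 and p57 hold the kinases back, and A-type and B-type cyclins with CDK1 drive entry into mitosis. In the adult testis the same machinery serves mitosis of spermatogonia and both meiotic divisions of spermatocytes, and some genes have forms used mostly by germ cells, such as cyclin A1. Sertoli cells of the adult do not divide.

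The promoters of these genes carry known sequence elements, which the list was not chosen by. Promoters of 300 bases, 250 of them before the transcription start, were available from RefSeq (GRCm38.p6) for 42 of the 52 genes. They were searched on both strands for an E2F site (TTTNNCGC), the cell cycle homology region or CHR (TTTGAA or TTTAAA), the CCAAT box (CCAAT) and a MYB site (AACNGTT or AACNGCC). No promoter of these genes had an E2F match that overlapped a CHR match. An E2F match was present in 21.7% of the 46 promoters of these genes and in 5.17% of all 32851 promoters, and by gene in 4 of 12 G1 genes, 5 of 9 S phase genes and 1 of 20 M phase genes. A CHR match was present in 45.7% of their promoters and in 27.6% of all, and by gene in 2 of 12 G1, 3 of 9 S phase and 16 of 20 M phase genes. For the CCAAT box the shares were 69.6% and 37.4%, and by gene 6 of 12 G1, 8 of 9 S phase and 16 of 20 M phase genes. For the MYB site they were 21.7% and 16.1%, and by gene 2 of 12, 2 of 9 and 6 of 20. Differences between the phases were not tested. The matches are matches of letters and were not tested as binding sites. In the stretches of 30 bases below, written 5′ to 3′ on the strand of the gene, capitals mark 1 match of the motif named. Further matches within a stretch are left in lower case, and some of these genes have more matches than are printed. The first pair carries an E2F match in genes of the replicative helicase, and the next an E2F match of an RB relative.
Mcm5, E2F, chr8:75109345-75109374, plus strand: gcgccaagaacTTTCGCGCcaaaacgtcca
Mcm6, E2F, chr1:128359734-128359763, minus strand: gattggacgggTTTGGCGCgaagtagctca
Rbl1, E2F, chr2:157204535-157204564, minus strand: caagaaggcgatTTTCGCGCgctttgtcgc
Cdk1, the only M phase gene with an E2F match, had it together with a CHR match. Plk1 is shown for the CHR, and Ccnb2 and Ccna1 for the CCAAT box (read as ATTGG from the other strand in Ccna1). Ccnb3, which was higher in null testes, is shown for a CHR match.
Cdk1, E2F, chr10:69353025-69353054, minus strand: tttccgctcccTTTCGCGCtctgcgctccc
Cdk1, CHR, chr10:69352913-69352942, minus strand: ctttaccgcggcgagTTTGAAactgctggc
Plk1, CHR, chr7:122159394-122159423, plus strand: gcgggtttgtatTTTAAAtccccgcggcca
Ccnb2, CCAAT box, chr9:70421591-70421620, minus strand: cttccagtctagCCAATgggttgcgcgcgc
Ccna1, CCAAT box, chr3:55055145-55055174, minus strand: gggtggccgctgATTGGctgattcaacaga
Ccnb3, CHR, chrX:7041745-7041774, minus strand: cccgtcccttggTTTAAAgtccaactgagg

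Every sample had an Affymetrix mouse expression array of its own, and the values are log2 signals after Robust Multichip Average (RMA), so a difference of 1 is a doubling of signal. Array medians lay between 6.96 and 7.05, and the correlation between any pair of arrays lay between 0.993 and 0.998. The depth of an array has no count, and the number of arrays limits the precision. In WT testes Tmem203 itself had a log2 signal of 9.81 ± 0.13 (SD, n = 4) and in null testes one of 9.11 ± 0.03 (SD, n = 5), which differ by -0.70 (adjusted p = 2.87e-04), although the place of its probe set relative to the replaced part is not known here. The methods name the samples as testes, which were taken separately from the left and right side, and a legend of the study speaks of 5 mice, which fits the number of null arrays and not that of the 4 WT arrays. It is thus not settled that each array stands for a separate animal. The p-values set the difference between genotypes against the scatter among these samples only, which may be technical. A gene was read through its probe set with the highest mean over the 9 arrays, and was called changed when the adjusted p from limma was under 0.05. On all 9 arrays the chosen probe set of each of the 51 genes reached a log2 signal of 5, the level that the methods take as detected.

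Most of the cell cycle genes differed little between the genotypes. Cdkn1c and Mad2l1 were lower in null testes, Rb1 and Ccnb3 were higher, and the other 47 genes did not pass the test. The 2 higher genes compare with 5.82% of all genes tested that were called higher, and the 2 lower genes with 4.82% called lower, so neither count among 51 genes stood above the background. With the further thresholds of the methods, a change of at least 1.5-fold and a detected signal, Cdkn1c was the single lower gene, beside 0.813% of all genes, and there were 0 higher genes, beside 0.995% of all genes. Among the 47 genes that were not called, the log2 fold changes lay between -0.26 and 0.32. The 95% intervals of all 47 lay within 1.5-fold in either direction, with ends at -0.43 and 0.51 on the log2 scale. This holds for the chosen probe sets. Of 54 other detected probe sets of these genes, 4 had an interval that passed the limit, 1 of Ccnd1 (to -0.65), 2 of Ccnd2 (to 0.66 and 0.63) and 1 of Rbl1 (to 0.72). The median absolute log2 fold change was 0.08 for these 51 genes and 0.10 for all genes. In whole tissue, fewer cells of a type and less RNA per cell cannot be told apart.

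**Figure D1:**
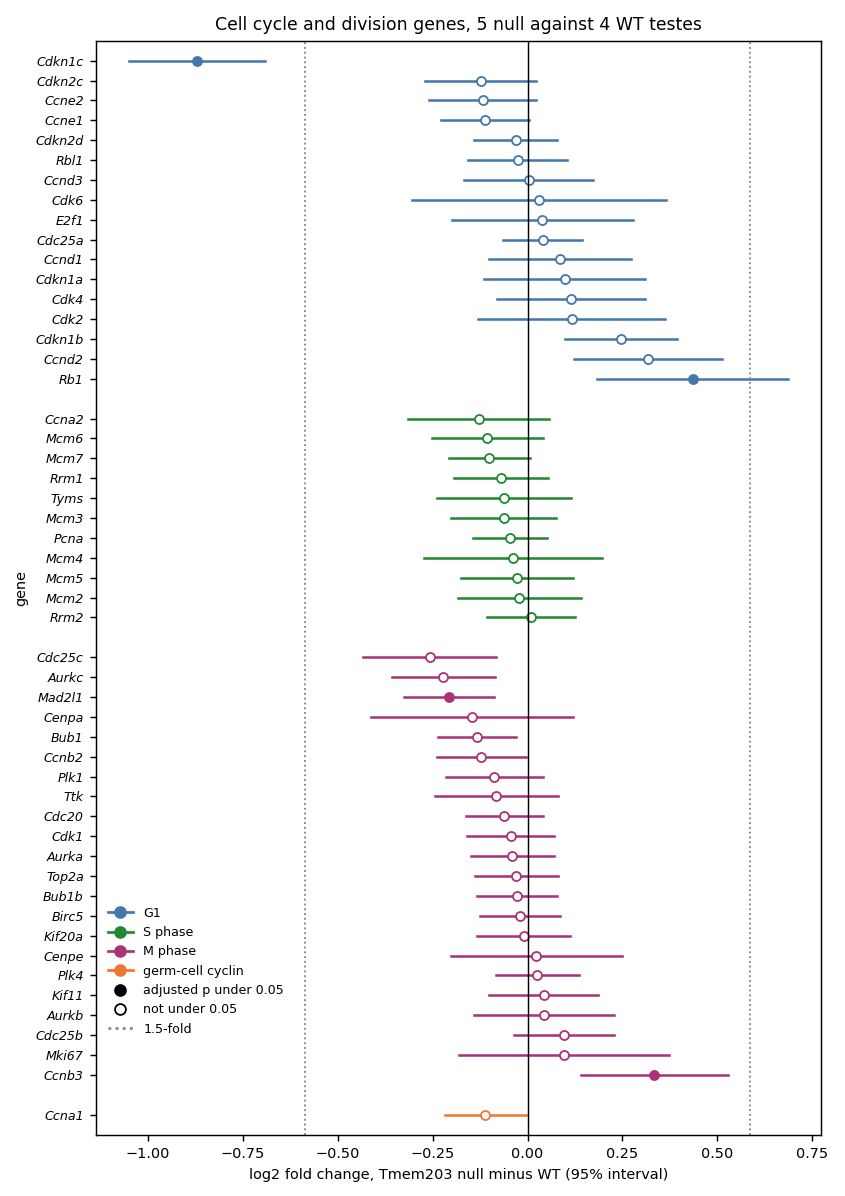
Log2 fold change, Tmem203 null minus WT, of each of the 51 genes with its 95% interval, by phase (G1 blue, S phase green, M phase purple, germ-cell cyclin orange). Filled points have an adjusted p under 0.05 and dotted lines mark a 1.5-fold change. Cdkn1c at -0.87 lies beyond the line with its whole interval, and the intervals of all open points, each the chosen probe set of its gene, lie between the lines.

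In G1, Cdkn1c fell and Rb1 rose, while the remaining 15 genes did not pass the test. Cdkn1c encodes p57, an imprinted inhibitor of cyclin-CDK complexes that holds cells in G1. Its log2 signal was 11.39, 11.57, 11.75 and 11.51 in the 4 WT samples and 10.68, 10.63, 10.64, 10.60 and 10.87 in the 5 null samples. All null samples were below the lowest WT sample, with a gap wider than the range within either genotype. The log2 fold change was -0.87 (standard error 0.08, adjusted p = 3.05e-04 from limma), which is a 1.83-fold lower signal. The study, from these same arrays, already lists Cdkn1c as decreased in null testes, at the same value of -0.87. Left out in turn, no array moved the log2 fold change outside -0.92 to -0.81, and the adjusted p stayed at or under 0.0018.

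Rb1 encodes the retinoblastoma protein, the pocket protein that binds E2F factors until it is phosphorylated. Its log2 signal was 9.37, 8.99, 8.98 and 9.52 in WT and 9.68, 9.52, 9.72, 9.61 and 9.71 in null samples. The WT samples fell into a lower pair, replicates 2 and 3, and a higher pair, of which replicate 4 reached the lowest null sample. The log2 fold change was 0.44 (standard error 0.11, adjusted p = 0.0442). The call depended on single arrays, with an adjusted p of 0.124 without WT replicate 2, 0.0859 without WT replicate 3, and 0.0507 without WT replicate 1. It was lost without any one of the null samples too (0.0543 to 0.0999) and held without WT replicate 4 (0.0147). The other Rb1 probe set, at a log2 signal of 4.53 in WT, was not detected, and its log2 fold change was -0.04.

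The 2 G1 genes with the next largest changes missed the threshold. Ccnd2, which encodes cyclin D2, had log2 signals of 9.08, 9.23, 9.42 and 9.15 in WT and 9.42, 9.62, 9.39, 9.55 and 9.71 in null samples, with the highest WT sample inside the null range. The log2 fold change was 0.32 (standard error 0.09, adjusted p = 0.0555). All 7 Ccnd2 probe sets differed in the same direction, with log2 fold changes from 0.28 to 0.44, and 2 of them passed the test (adjusted p = 0.0143 and 0.0247). Cdkn1b, which encodes the CDK inhibitor p27, had log2 signals of 9.97, 9.74, 10.06 and 9.99 in WT and 10.23, 10.12, 10.18, 10.21 and 10.19 in null samples. All null samples were above the highest WT sample, and the log2 fold change was 0.25 (standard error 0.07, adjusted p = 0.0506). The other detected Cdkn1b probe set had a log2 fold change of 0.12 (adjusted p = 0.629), with null samples from 9.81 to 10.26 inside the WT range of 9.69 to 10.32.

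The remaining G1 genes comprise D- and E-type cyclins, their kinases, CDK inhibitors, the phosphatase Cdc25a, E2f1 and the RB relative Rbl1. Their log2 fold changes lay between -0.12 (Cdkn2c, encoding p18) and 0.12 (Cdk2). Probe sets of 1 gene disagreed in places. The E-type cyclin Ccne1 had a log2 fold change of -0.11 (adjusted p = 0.229) by the chosen probe set and of -0.27 (adjusted p = 0.0346) by another detected one. Cdkn1a, encoding p21, differed by 0.10 by the chosen and by -0.31 by its other probe set (adjusted p = 0.0698). The 3 probe sets of Ccnd1, encoding cyclin D1, gave 0.09, -0.39 and 0.15, none of which passed the test. Taken over the 17 G1 genes, 11 log2 fold changes were positive and 6 negative with a median of 0.04, which became -0.03 when each gene was read through its detected probe set with the smallest p.

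No S phase gene passed the test, and their log2 fold changes were small. By the chosen probe sets, 10 of the 11 genes had a negative log2 fold change, between -0.13 and -0.02, and Rrm2 was at 0.01. Over all genes, 10091 of 18193 were negative. The median was -0.06, against -0.02 for all genes, and it lay between -0.09 and -0.02 under all the alternatives tried. Tyms, with log2 signals from 5.05 to 5.44, was close to the detection level of 5. Ccna2 encodes cyclin A2, the cyclin A of dividing cells in general, which acts in S phase and into mitosis. Its log2 signal was 9.10, 9.14, 9.40 and 9.07 in WT and 9.04, 8.92, 9.0, 9.06 and 9.23 in null samples, and the genotypes overlapped. The log2 fold change was -0.13 (standard error 0.08, adjusted p = 0.398), the largest of the S phase genes.

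Pcna encodes the sliding clamp of DNA polymerases. It had log2 signals of 13.23, 13.28, 13.28 and 13.23 in WT and 13.19, 13.23, 13.23, 13.22 and 13.19 in null samples. The 2 genotypes touched near 13.23, and the log2 fold change was -0.05 (standard error 0.04, adjusted p = 0.575).

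The next largest change was that of Mcm6, a subunit of the replicative helicase, for which an E2F match is printed above. Its log2 signals were 9.36, 9.55, 9.40 and 9.36 in WT and 9.46, 9.34, 9.31, 9.22 and 9.24 in null samples, with null replicate 1 inside the WT range. The log2 fold change was -0.11 (standard error 0.07, adjusted p = 0.378). All 6 helicase genes, Mcm2 to Mcm7, had negative log2 fold changes by the chosen probe sets, from -0.11 to -0.02. Mcm7 was the S phase gene in which the genotypes did not overlap by the chosen probe set, at -0.10 (adjusted p = 0.241). They did overlap by its other detected probe sets, at -0.14, -0.07 and -0.01. For Rrm2, the small subunit of ribonucleotide reductase, another detected probe set had -0.24 (adjusted p = 0.0558 from limma). A further detected Rrm2 probe set had 0.12 (adjusted p = 0.433 from limma). Positive values were also given by a detected probe set of Rrm1, at 0.15, and by the other probe set of Mcm2, at 0.02.

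Among the M phase genes, the checkpoint gene Mad2l1 fell and the cyclin gene Ccnb3 rose, and 20 genes did not pass the test. Mad2l1 encodes MAD2, which binds CDC20 and delays anaphase until all chromosomes are attached to the spindle. Its log2 signal was 9.60, 9.71, 9.74 and 9.64 in WT and 9.41, 9.49, 9.50, 9.39 and 9.54 in null samples. All null samples were below the lowest WT sample, but the log2 difference was small, at -0.21 (standard error 0.05, adjusted p = 0.0438), or 1.15-fold. The call was lost without any one of the 9 arrays, where the adjusted p lay between 0.0527 and 0.111, highest without WT replicate 2, while the log2 fold change stayed between -0.23 and -0.19.

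Ccnb3 encodes cyclin B3, a B-type cyclin of germ cells that is known for its expression in early meiotic prophase. Its log2 signal was 5.35, 5.34, 5.33 and 5.37 in WT and 5.53, 5.52, 5.96, 5.64 and 5.76 in null samples. The genotypes did not overlap, although all values were close to the detection level of 5 and the WT samples spanned only a few hundredths. The log2 fold change was 0.33 (standard error 0.09, adjusted p = 0.0445). Without null replicate 3, the highest sample, it was 0.26 (adjusted p = 0.0532). Without any 1 of the WT samples the adjusted p lay between 0.076 and 0.106, and without null replicate 4 or 5 it was 0.0778 and 0.104. The call held without null replicate 1 (0.0486) or 2 (0.0376).

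**Figure D2:**
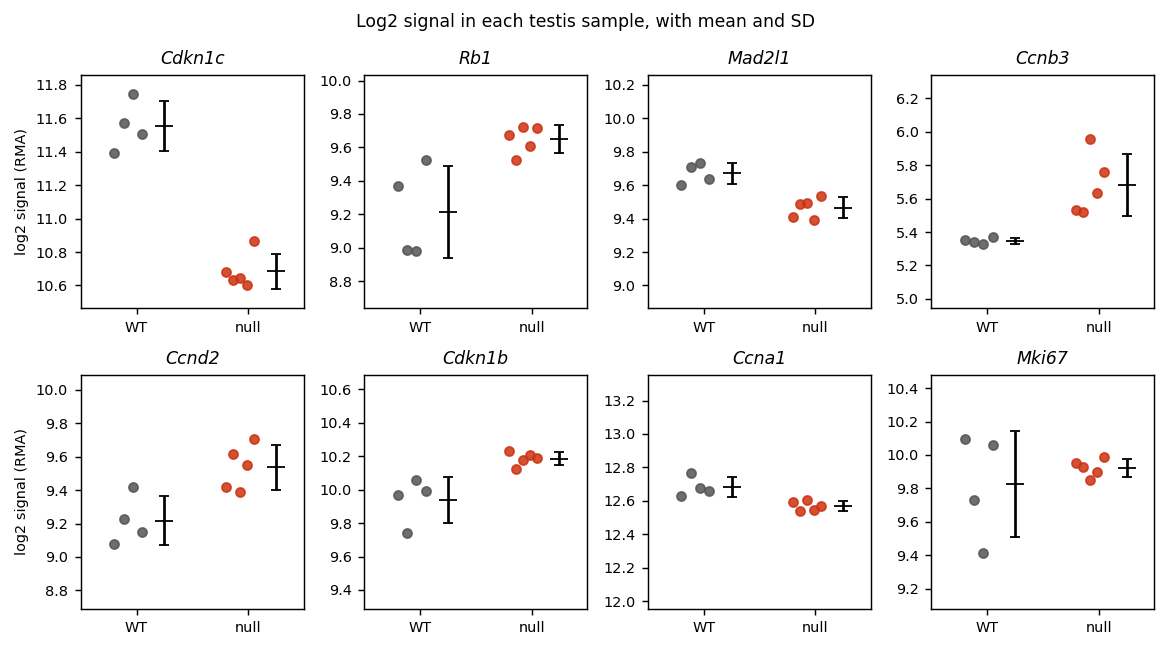
Log2 signal (RMA) of 8 genes by sample, with 4 WT samples in grey and 5 null samples in red and the mean and SD beside the points. The axes differ in level and not in width. Cdkn1c is set apart by the widest gap, Rb1 and Mki67 show WT samples that spread more than the null samples, and Ccnb3 lies near the detection level of 5.

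Several other M phase genes had small differences that missed the threshold. Cdc25c, the phosphatase that activates CDK1, had log2 signals of 10.80, 11.01, 10.99 and 10.69 in WT and 10.55, 10.68, 10.71, 10.50 and 10.65 in null samples. The lowest WT sample lay just inside the null range, and the log2 fold change was -0.26 (standard error 0.08, adjusted p = 0.0787), with -0.25 (adjusted p = 0.0537) by its second probe set. Aurkc, a kinase of the chromosomal passenger complex used in meiosis, had -0.22 (standard error 0.06, adjusted p = 0.0541), and the null samples, at 11.16 to 11.38, did not reach the WT samples, at 11.43 to 11.58. The same separation was seen for Bub1, a checkpoint kinase, at -0.13 (adjusted p = 0.118). By its other probe set, at -0.28, the genotypes overlapped.

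Proliferation markers of M phase did not pass the test. Mki67 encodes Ki-67, a chromosome surface protein of cycling cells, and had log2 signals of 10.09, 9.73, 9.41 and 10.06 in WT and 9.95, 9.93, 9.85, 9.90 and 9.99 in null samples. All null samples lay within the WT range, and the log2 fold change was 0.10 (standard error 0.12, adjusted p = 0.685). Top2a, encoding the topoisomerase that untangles sister chromatids, had log2 signals of 11.82, 11.78, 11.72 and 11.83 in WT and 11.75, 11.71, 11.82, 11.74 and 11.78 in null samples, which overlapped almost completely. Its log2 fold change was -0.03 (standard error 0.05, adjusted p = 0.766). The mitotic kinase genes Cdk1, Plk1, Aurka and Aurkb had -0.04, -0.09, -0.04 and 0.04, and the cyclin B2 gene Ccnb2 had -0.12 (adjusted p = 0.2). In all, 15 of the 22 log2 fold changes were negative, with a median of -0.03, which stayed between -0.08 and -0.02 under the alternatives.

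Ccna1 encodes cyclin A1, which spermatocytes need to leave meiotic prophase. Its log2 signal was 12.63, 12.77, 12.67 and 12.66 in WT and 12.59, 12.54, 12.61, 12.54 and 12.57 in null samples. The null samples lay below the WT samples by a narrow margin, and the difference of -0.11 (standard error 0.05, adjusted p = 0.2) did not pass the test. Its 95% interval ran from -0.22 to -0.0041 on the log2 scale, without adjustment for the number of genes.

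Over all 51 genes, by the chosen probe sets, the null samples were all above the WT samples for 2 genes, Cdkn1b and Ccnb3. They were all below them for 6 genes, Cdkn1c, Mcm7, Aurkc, Bub1, Mad2l1 and Ccna1. For all genes tested these shares were 7.81% above and 8.81% below, so that the 2 genes above are a smaller share of the 51, and the 6 below a slightly larger one, than among all genes. When each gene was read through its most significant detected probe set, the choice that the methods made for their pathway analysis, but without a limit on the fold change, 3 members were called higher (Ccnb3, Ccnd2 and Rb1), beside 8.03% of 16180 genes. By that rule 3 members were called lower (Ccne1, Cdkn1c and Mad2l1), beside 6.82%. Of 116 probe sets annotated to the members, 105 were detected, and 4 of these were called higher, beside 5.7% of all detected single-gene probe sets, and 3 lower, beside 4.23%.

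**Figure D3:**
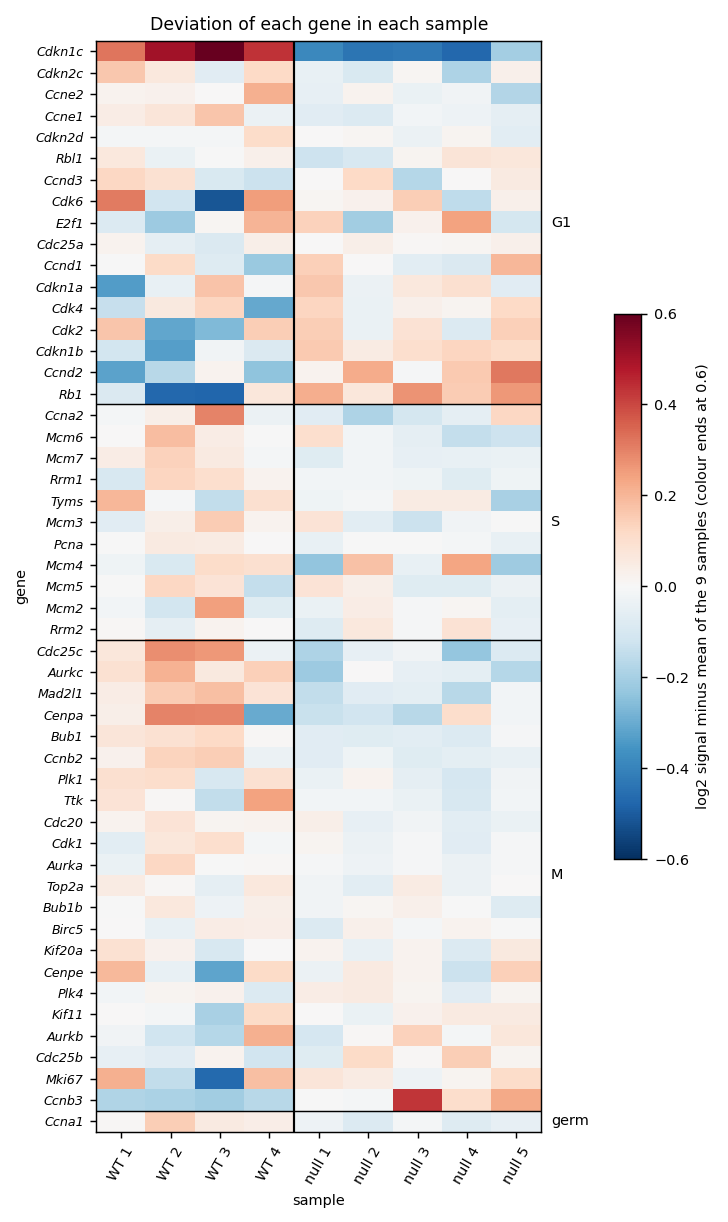
Log2 signal minus the mean of the 9 samples for each of the 51 genes (rows, by phase and ordered within it by log2 fold change) in each sample (columns), with the colour scale ending at 0.6. The top row, Cdkn1c, changes colour between the genotypes, most other rows are pale, and strong colours in WT replicate 3 recur in Cdk6, Rb1 and Mki67.

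The WT samples varied more than the null samples. The SD over WT samples exceeded that over null samples in 38 of the 51 genes (74.5%), beside 68.8% of all genes, and its median was 0.10 in WT and 0.07 in null. WT replicate 3 was the WT sample farthest from the WT mean in 19 of the 51 genes, and the other WT samples in 5, 13 and 14. Over all genes it was farthest in 36.4%. It had the lowest signal of the 9 samples for Mki67 (9.41), Rb1 (8.98) and Cdk6 (7.33), the kinase partner of D-type cyclins, and the highest for Mad2l1 (9.74), Cdkn1c (11.75) and Bub1 (11.70). Without it, 2 genes were called higher, Ccnd2 and Cdkn1b, and 2 lower, Aurkc and Cdkn1c, so that Cdkn1c was the call shared with the fit on all arrays, beside 6.87% of all genes called higher and 4.34% lower. Without WT replicate 4, Rb1 was called higher, and Cdc25c and Cdkn1c lower, beside 4.38% and 4.94%.

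**Figure D4:**
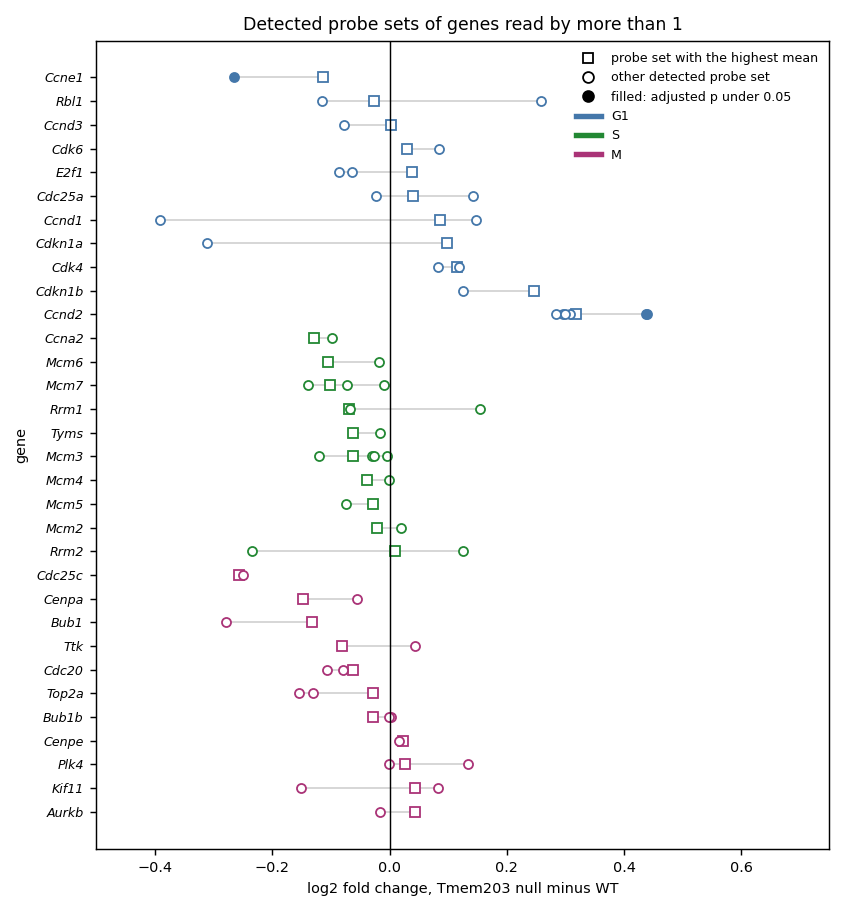
Log2 fold change, Tmem203 null minus WT, of all 86 detected probe sets of the 32 genes that are read by more than 1, by phase (G1 blue, S phase green, M phase purple). Squares are the probe set with the highest mean, circles the others, and filled symbols have an adjusted p under 0.05. The 7 probe sets of Ccnd2 lie together between 0.28 and 0.44, whereas those of Ccnd1 and Cdkn1a lie on both sides of 0.

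Other genes of the same processes, not among the 52, gave few calls. In G1 control and the E2F-RB network, 3 of 29 genes were called higher and 0 lower. The 3 were E2f3, an activating E2F factor, at 0.31 (adjusted p = 0.0219), Tfdp2, a dimerisation partner of E2F, at 0.43 (adjusted p = 0.0362), and the cyclin G1 gene Ccng1 at 0.39 (adjusted p = 0.0465). The median of that list was -0.02. In DNA replication, 0 of 37 genes were called higher and 1 lower, Orc5, a subunit of the origin recognition complex, at -0.18 (adjusted p = 0.0362). There 30 of the 37 log2 fold changes were negative, with a median of -0.08, beside 10091 of 18193 over all genes. In mitosis, 0 of 64 genes were called higher and 2 lower, the kinesin gene Kif22 at -0.22 (adjusted p = 0.0309) and the kinetochore gene Spc25 at -0.21 (adjusted p = 0.0499), with a median of -0.02. Among meiosis genes, 0 of 35 were called higher and 2 lower. These were Dmc1, the recombinase of meiotic crossing over, at -0.33 (adjusted p = 0.0141) and Syce3, of the synaptonemal complex, at -0.25 (adjusted p = 0.0381), and the median was -0.05. The called share of each list lay near the 5.82% and 4.82% of all genes or below, other than the 3 of 29 in G1 control.

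Markers of testicular cell types give the cellular background of these values. Sertoli cell markers were called higher in 10 of 15 genes, with a median log2 fold change of 0.27, and the mean of the list lay between 10.40 and 10.61 in WT and between 10.70 and 10.87 in null samples. Leydig cell markers were called higher in 2 of 6 genes (median 0.38), with list means of 11.49 to 11.98 in WT and 11.83 to 12.18 in null samples. Macrophage markers were called higher in 2 of 9 genes (median 0.25). Of the germ cell markers, 0 of 12 spermatocyte, 0 of 11 round spermatid and 0 of 14 elongating spermatid genes were called, with medians of -0.06, -0.08 and -0.01. The spermatocyte markers include Ccna1, which is also among the genes described here, and several genes of the meiosis list above. They are thus not separate from either. Among 14 spermatogonial markers Kit was higher at 0.65 (adjusted p = 0.0259) and Sohlh1 lower at -0.40 (adjusted p = 0.00469), with a median of -0.01. Each marker was read through 1 probe set. Gfra1 was at -0.17 (adjusted p = 0.153) by that probe set, whereas the study lists Gfra1 as increased in null testes. Peritubular myoid markers had 0 of 6 called, and of 6 endothelial markers 1 was lower. None of the measured markers was under a log2 signal of 5 on all arrays, and the mean of the spermatocyte list lay between 12.88 and 12.96 over the 9 samples. That of the elongating spermatid list was the highest of the marker lists, between 13.96 and 14.01. Whether signals this high were compressed was not tested, so the absence of calls there does not show that these cells were unchanged. In older null mice the study reports a large loss of condensed haploid cells by DNA flow cytometry. On sections it describes a subtle decrease of late spermatids. The Gapdh control signal was also less 3′-weighted in null samples, by -0.08 on the log2 scale (p = 0.0238, two-sided exact permutation test), while beta-actin differed by -0.03 (p = 0.341, same exact permutation test). The part of these differences in the changes of Cdkn1c, Rb1, Ccnb3 and Mad2l1 was not tested.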

How the data were processed

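RNA of testes was measured on 9 arrays, 5 of Tmem203 null and 4 of WT mice, grouped by the labels. The authors checked scan quality, kept every array and applied RMA, and deposited log2 signals for each probe set. The processing notes of the submitters list limma without a version. Here 45037 probe sets were fitted with limma 3.58.1 in R 4.3.3 (lmFit, eBayes; null minus WT), after 64 control probe sets were left out, with Benjamini-Hochberg adjustment over all of them. Symbols came from the platform annotation, where 34945 probe sets had 1 gene, 932 several and 9160 none, and 34741 of the former matched the RefSeq gene table of GRCm38.p6 by Entrez identifier. Intervals are 95% intervals from limma's moderated standard errors. The code was tested on simulated data. All members may be named; called members, Ccna1, Ccna2, Mki67, Pcna, Top2a and the 2 largest changes of each phase are given in full, and up to 3 called genes of each wider list. Members, lists and tests were chosen with earlier results of these data known. Alternatives were centring, repeated quantile normalization, other variance priors, array weights, filters, the probe set rule, a replicate block, each array left out, the methods' thresholds and a t-test. Scan dates were not used here, so batches were not tested. Python 3.11.15 joined tables, searched promoters and drew figures.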

Additional observations from a re-analysis of the deposited data

Results flagged for a closer look

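In 7 of 102 groups of samples (each gene in each genotype) 1 sample stood apart from the others of its genotype by Dixon's criterion, which flags about 1 group in 20 by chance. In WT, these were the log2 signals of Ccne2 (10.02 in replicate 4, with the next at 9.83), Cdkn2d (10.90 in replicate 4, with the others at 10.77), Cdc20 (12.23 in replicate 2, with the next at 12.17) and Plk1 (10.64 in replicate 3, with the next at 10.83). Among null samples they were those of Rrm1 (10.84 in replicate 4, with the next at 10.89), Ttk (10.87 in replicate 4, with the next at 10.93) and Bub1 (11.57 in replicate 5, with the next at 11.52). None of these genes was called. Some signals are exact ties, as among the other WT samples of Cdkn2d, so the rate of 1 group in 20 need not hold here.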

How the results depend on the processing

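Cdkn1c was called lower under all 19 alternatives that gave it an adjusted p, whereas Rb1 was called in 7, Ccnb3 in 9 and Mad2l1 in 7 of 19. Against 2 higher and 2 lower genes of 51, the calls were 0 higher and 3 lower with each array centred on its median (all genes 4.3% and 5.9%), 4 and 5 with a mean-variance trend (7.39% and 6.41%), 4 and 3 among detected probe sets alone (7.52% and 6.22%), 2 and 1 with array weights (7.0% and 4.97%), 2 and 6 with the mean over a gene's probe sets (6.32% and 6.1%), and 0 and 1 at the methods' thresholds (0.995% and 0.813%). The methods' t-test gave 2 and 5 at p under 0.01 (6.73% and 7.38%), and 0 and 3 after Benjamini-Hochberg (3.26% and 3.64%). Equal counts did not mean equal genes. The 2 higher genes were Ccnd2 and Cdkn1b with array weights, and Ccnb3 and Ccnd2 with the mean over probe sets. By the t-test at p under 0.01 they were Ccnb3 and Cdkn1b, so Rb1 was in none of these pairs. With each array left out, 0 to 2 genes were higher and 1 to 2 lower (3.18% to 6.87% and 2.9% to 4.94%). The labels do not say whether the replicate numbers pair the samples. Correlations of same-numbered samples, as deviations from the genotype means, ran from -0.06 to 0.08, and 1 WT sample was closest to its own number. With only 4 pairs, these values cannot settle whether samples were paired. With the replicate number as a block, 0 genes were higher and 1, Cdkn1c, lower (2.11% and 1.71%). The cause of these shifts was not tested. Of 963 values of single genes under these alternatives, 905 kept their side of the threshold, 34 lost a call and 24 gained one. In 0 did a call change direction. Values that were not called could change sign. For Ccnd1 the log2 fold change went from 0.09 to -0.39 when read through its detected probe set with the smallest p. The background step of RMA was not varied, and low signals such as those of Ccnb3 and Tyms are limited by it.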
